A study of Mus musculus with 8 samples.

Results

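Neonatal mouse ventricles were compared by the number in the middle of their titles, which run from KO-443-3 to WT-453-5, with genotype balanced between the numbers. The number divides the 8 libraries of the series into 4 number-443 and 4 number-453 libraries. Each number holds 2 libraries from NAE1CKO mice, in which floxed NAE1 was deleted by a Cre transgene under the αMHC promoter, and 2 from littermate control (CTL) mice. NAE1 is a subunit of the enzyme that activates NEDD8, the first step of neddylation, the attachment of this ubiquitin-like protein to its targets. Every library of polyadenylated RNA came from 1 heart, and no treatment is given for either genotype. Neither the sources' labels nor the methods say what the number stands for, and the labels give the age only as neonatal, which the methods use for postnatal day 1. The 4 groups are named by the start of their titles, KO-443 and KO-453 for NAE1CKO hearts and WT-443 and WT-453 for CTL hearts. Values of a pair follow the last digit of the title, with 3 and 5 in KO-443, 6 and 7 in KO-453, 7 and 8 in WT-443, and 3 and 5 in WT-453.

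Deletion by αMHC-Cre reaches cardiomyocytes, so the other cells of the ventricle keep NAE1. Nae1 was at 13.2 and 12.9 CPM (counts scaled to library depth with TMM factors) in KO-443 and at 10.6 and 11.2 CPM in KO-453, against 23.3 and 22.3 CPM in WT-443 and 24.1 and 23.7 CPM in WT-453. Both NAE1CKO pairs lay below both CTL pairs, as their labels say. Between the numbers Nae1 differed by 0.08 ± 0.08 on the log2 scale (SE, adjusted p = 0.658 in edgeR's quasi-likelihood test with Benjamini-Hochberg adjustment). The 7 cardiomyocyte markers summed to 51530 to 78077 CPM in every library, while lung markers summed to at most 0.431 CPM and thymus and T cell markers to at most 1.94 CPM. In tissue RNA of this kind, fewer cells of a type and less RNA per cell cannot be told apart.

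The libraries held 13932821 to 18593509 counts. WT-453-5 stood apart through Gm42418, a transcript that overlaps ribosomal RNA sequence, which took 12.8% of its counts, against 3.09% to 4.62% in the other 7 libraries. KO-453-7 also stood apart. Its cell cycle genes summed to 1263 CPM and its immediate early genes to 1366 CPM, against 1934 to 2296 CPM and 746 to 857 CPM in the other 3 NAE1CKO libraries. Xist, the RNA that silences an X chromosome in females, was at 215 and 232 CPM in WT-443, 332 CPM in KO-453-6 and 317 CPM in WT-453-3, and at most 3.21 CPM in the other 4 libraries, which expressed the Y-linked genes. Each number thus held 2 libraries of each kind. Within a genotype the kinds were not balanced, since both number-443 libraries were of 1 kind and the number-453 pair held 1 of each.

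The number was a minor source of variation beside genotype. Over 14096 genes tested, the median gene had 39.96% of its variance in log2 CPM between genotypes, 8.06% between the numbers, 4.75% in their interaction and 25.8% between libraries of a group, where the last term has 4 degrees of freedom and the others 1 each. The first principal component of the 500 most variable genes held 71.5% of the variance and followed genotype. The third held 6.67% and followed the number, with scores of 4.06 to 7.71 in the number-443 libraries and -3.85 to -7.00 in the number-453 libraries. These ranges did not overlap in either genotype (two-sided exact permutation test within genotype, p = 0.0556, the smallest that 36 arrangements allow, and 0.241 after adjustment over the 13 library measures tested).

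With genotype as a covariate, 143 of 14096 genes (1.01%) differed between number-443 and number-453 hearts at an adjusted p under 0.05. Of these, 60 were higher in number-443 hearts (0.426%) and 83 were lower (0.589%). Most differences were small. The median size over the called genes was 0.38 on the log2 scale and the smallest was 0.22, and 23 genes (0.163%) passed 1.5-fold, 16 of them higher (0.114%) and 7 lower (0.0497%) in number-443 hearts. At an unadjusted p under 0.05 the count was 2385 genes (16.9%). In all 143 genes the fitted difference had the same sign in both genotypes. In 142 the number-443 and number-453 libraries did not overlap in CPM within either genotype, as in 2114 of all genes tested (15%). Both traits are favoured by the selection, since these genes were called on the same difference in the same libraries. The direction of the split rests on scaling. With library size alone in place of TMM, 105 genes were called and 70.5% of them were higher in number-443 hearts, against 42% with TMM, and the median of all genes moved to 0.05, against -0.00499 with TMM.

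The difference was also taken within each genotype. The 2 contrasts share no library, but they come from the same fit and share its estimate of spread for each gene. Their p-values are therefore not independent. Within NAE1CKO, 14 genes (0.0993%) were called, 10 higher (0.0709%) and 4 lower (0.0284%) in number-443 hearts, and within CTL 192 genes (1.36%) were called, 77 higher (0.546%) and 115 lower (0.816%). Of the 192 genes called within CTL, 157 (81.8%) had the same sign within NAE1CKO, against 57.9% of all genes tested, and 73 (38.0%) had the same sign with an unadjusted p under 0.05, against 7.68% of all genes. Only 4 of the 192 had the opposite sign at that threshold. Of the 14 genes called within NAE1CKO, 9 (64.3%) had the same sign within CTL. Across all 14096 genes, which are not independent replicates, the differences in the 2 genotypes correlated with Pearson's r of 0.227 and Spearman's rho of 0.221.

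**Figure D1:**
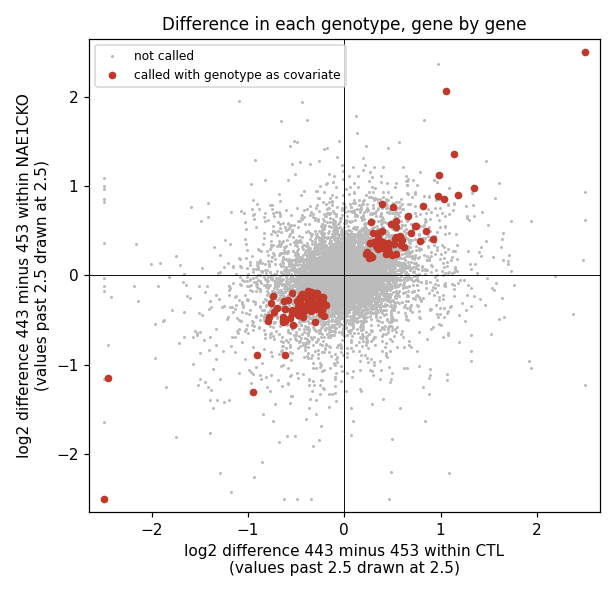
The log2 difference, number-443 minus number-453, within CTL (x axis) is plotted against that within NAE1CKO (y axis) for each of 14096 genes, with the 143 genes called with genotype as a covariate in red. All red points lie to the lower left or the upper right of the origin, which their selection in the same libraries favours. Values past 2.5 are drawn at the edge.

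Leaving out any library changed how many genes were called. Without KO-453-7, 1542 genes were called, 769 higher and 773 lower in number-443 hearts, and all 143 genes were among them. Leaving out any other library lowered the count, to 46 without KO-443-3 and 37 without KO-443-5, 79 without KO-453-6, 26 without WT-443-7 and 29 without WT-443-8, and 13 without WT-453-3 and 15 without WT-453-5. Over the 8 fits that each left out 1 library, 69 of the 143 genes were called in only 1 and 12 were called in all 8. The 12 were Gm28438, Dbp, Aqp4, Abat and Cep89, higher in number-443 hearts, and Ddx17, Kcnq1ot1, Malat1, Frmd5, Smoc2, Agpat3 and Spry4, lower in number-443 hearts.

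**Figure D2:**
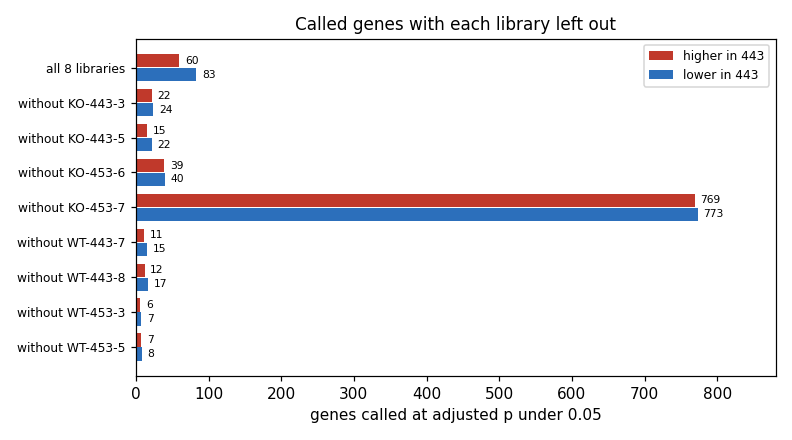
Bars give the number of genes called at an adjusted p under 0.05 with all 8 libraries and with each library left out, higher (red) and lower (blue) in number-443 hearts. The count is 60 and 83 with all libraries, 769 and 773 without KO-453-7, and 6 to 39 and 7 to 40 in the other cases.

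The genes of the circadian clock and its output were among those that differed. In the clock, CLOCK and ARNTL activate genes through the E-box, the PER and CRY proteins repress them, and the nuclear receptors NR1D1 and NR1D2 repress genes with a REV-ERB and ROR element. DBP, TEF and HLF are output activators that bind the D-box, where the repressor NFIL3 competes with them. Of 19 clock genes tested, 3 rose in number-443 hearts (Dbp, Hlf and Nr1d2), 2 fell (Nfil3 and Clock) and 14 did not pass, where 1.01% of all genes tested were called, and their median difference was 0.28 on the log2 scale, against -0.00499 over all genes. Within NAE1CKO this median was 0.03 and within CTL 0.32, a difference between genotypes that was not tested. The time of day at which the hearts were taken is not given in the sources.

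The output activators came first. Dbp (chr7:45705088-45710203 of GRCm38, plus strand) had 9.42 and 12.9 CPM in KO-443, against 3.73 and 4.96 CPM in KO-453, and 23.2 and 24.9 CPM in WT-443, against 11.4 and 10.4 CPM in WT-453. Both number-443 pairs lay above the number-453 pair of their genotype. Dbp was 2.36-fold higher in number-443 hearts (log2 1.24 ± 0.12, SE, adjusted p = 0.00154 by edgeR's quasi-likelihood test with Benjamini-Hochberg adjustment), by 1.36 on the log2 scale within NAE1CKO and 1.14 within CTL. Exons of Dbp overlap 539 bases of Sphk2 on the other strand, and since the strand setting of the counting is not given, reads in that stretch could come from either gene. Sphk2 itself averaged 28.6 CPM in number-443 hearts and 25.5 CPM in number-453 hearts (log2 0.17 ± 0.08, adjusted p = 0.282).

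Hlf (chr11:90336536-90390895, minus strand) had 19.6 and 22.9 CPM in KO-443, against 8.65 and 14.2 CPM in KO-453, and 64.5 and 66.3 CPM in WT-443, against 30.5 and 36.2 CPM in WT-453. The pairs did not overlap within either genotype, and Hlf was higher in number-443 hearts by 0.94 ± 0.13 on the log2 scale (adjusted p = 0.0136, edgeR). The third activator, Tef, did not pass (0.51 ± 0.12, adjusted p = 0.0884, edgeR). Tef had 66.6 and 71.4 CPM in KO-443, against 48.6 and 64.8 CPM in KO-453, and 92.5 and 99.7 CPM in WT-443, against 57.6 and 57.3 CPM in WT-453. The repressor of the same element went the other way. Nfil3 (chr13:52967209-52981073, minus strand) had 21.5 and 18.1 CPM in KO-443, against 28.1 and 28.2 CPM in KO-453, and 12.7 and 11.2 CPM in WT-443, against 21.5 and 19.9 CPM in WT-453. It was lower in number-443 hearts by -0.64 ± 0.09 on the log2 scale (adjusted p = 0.00758, edgeR).

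**Figure D3:**
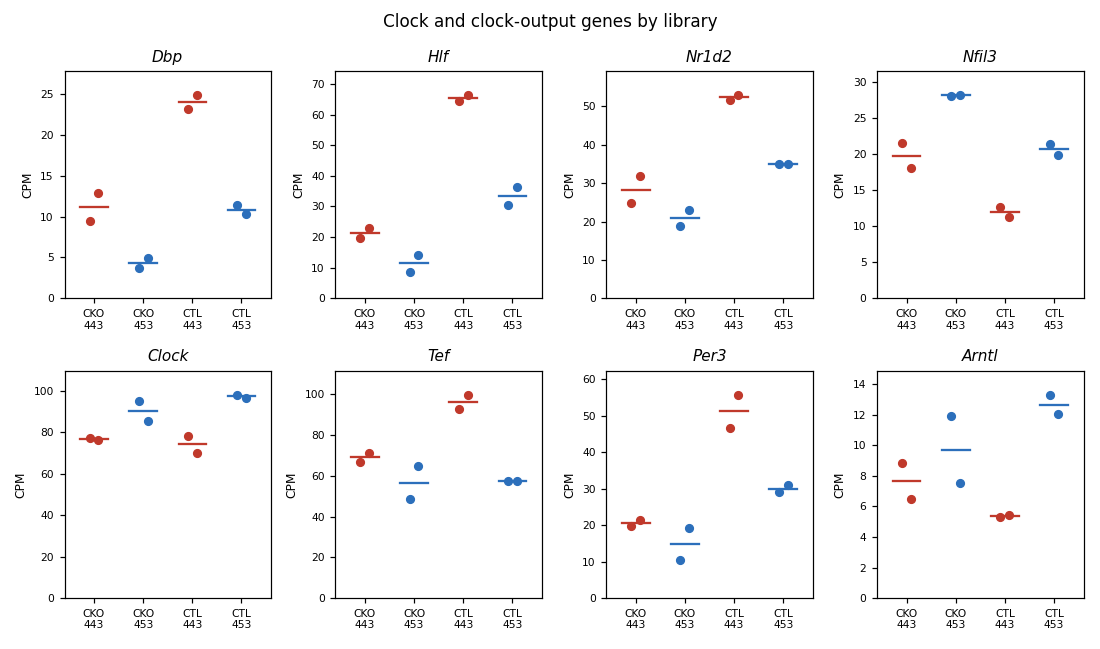
CPM of 8 clock and clock-output genes is shown for each library as a point, with the mean of each pair as a bar, for NAE1CKO (CKO) and CTL hearts of number-443 (red) and number-453 (blue). The number-443 points of Dbp, Hlf and Nr1d2 lie above the number-453 points of their genotype and those of Nfil3 and Clock lie below, while the pairs of Arntl overlap within NAE1CKO.

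Of the repressors of the core loop, Nr1d2, which encodes REV-ERBβ, passed. It had 24.8 and 31.8 CPM in KO-443, against 18.7 and 23.03 CPM in KO-453, and 51.8 and 52.9 CPM in WT-443, against 35.1 and 35.0 CPM in WT-453, a difference of 0.51 ± 0.09 on the log2 scale (adjusted p = 0.0223, edgeR). Its paralogue Nr1d1 had overlapping values (0.34 ± 0.16, adjusted p = 0.324). Per3 had 19.7 and 21.4 CPM in KO-443, against 10.6 and 19.2 CPM in KO-453, and 46.7 and 55.8 CPM in WT-443, against 29.0 and 31.0 CPM in WT-453, without passing the test (0.63 ± 0.17, adjusted p = 0.134). Per1, Per2 and Cry2 did not pass either, with 0.43, 0.34 and 0.28 on the log2 scale.

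On the activating side, Clock had 77.1 and 76.4 CPM in KO-443, against 94.9 and 85.4 CPM in KO-453, and 78.1 and 70.1 CPM in WT-443, against 97.9 and 96.4 CPM in WT-453. It was lower in number-443 hearts by -0.31 ± 0.06 on the log2 scale (adjusted p = 0.0320, edgeR), a call that library size alone in place of TMM ended. Arntl, the partner of CLOCK, had 8.83 and 6.51 CPM in KO-443, against 11.9 and 7.55 CPM in KO-453, and 5.29 and 5.41 CPM in WT-443, against 13.3 and 12.0 CPM in WT-453. Its values overlapped within NAE1CKO, and only the difference within CTL was called (-1.25, adjusted p = 0.0288, against -0.77 ± 0.22, adjusted p = 0.130, with genotype as covariate). The interaction of Arntl did not pass (adjusted p = 0.422).

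These calls differed in how far they depended on single libraries. Over the 8 fits that left out 1 library, Dbp was called in 8, Nfil3 in 6, Hlf in 3, Nr1d2 in 2 and Clock in 1. Nfil3 lost its call without either library of WT-453. Outside the list, and chosen after their values were seen, Rorb (1.20 ± 0.26), a nuclear receptor of the ROR family, Cirbp (0.43 ± 0.08), a cold-inducible RNA-binding protein, and Usp2 (0.31 ± 0.07), a deubiquitinase, were also higher in number-443 hearts, with adjusted p of 0.0486, 0.0250 and 0.0471 (edgeR). Of the same 8 fits, Cirbp was called in 2, and Rorb and Usp2 in 1 each.

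**Figure D4:**
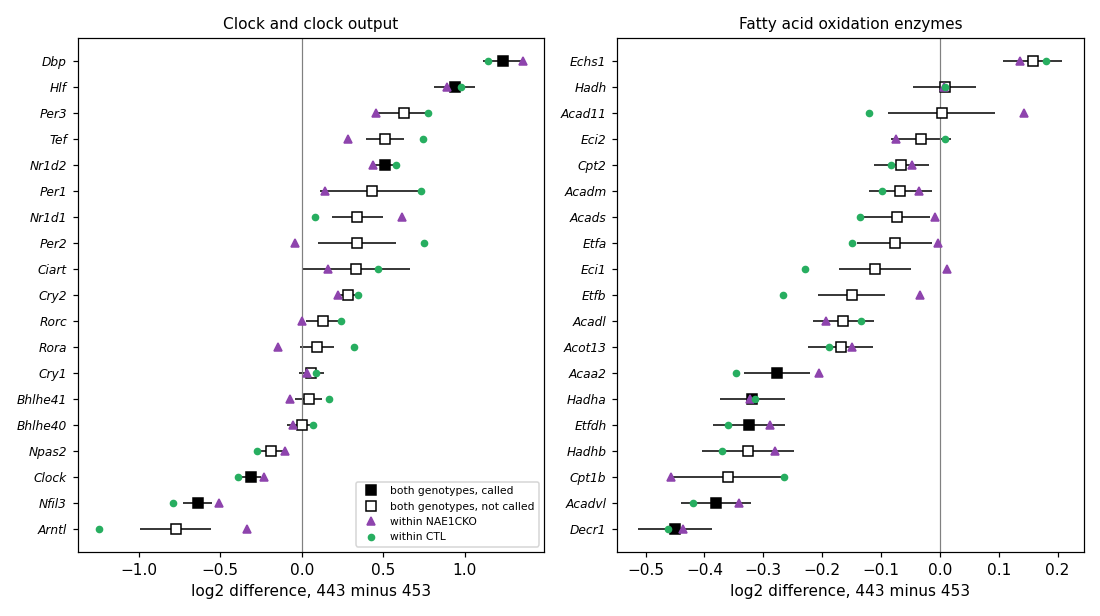
The log2 difference, number-443 minus number-453, is shown for each clock gene (left) and each fatty acid oxidation enzyme (right), with squares for the fit over both genotypes (filled where called, lines ± SE), triangles within NAE1CKO and circles within CTL. Dbp, Hlf and Nr1d2 are filled right of 0 and Clock and Nfil3 left of 0, and all 5 filled enzymes lie left of 0.

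The promoters of these genes were searched for the elements named above, since the clock list turns on them. Over the 250 bases before the RefSeq start on GRCm38.p6, on both strands, the E-box CACGTG was found in 5 of the 16 clock genes with a promoter in the table (31.2%), Bhlhe41, Ciart, Cry1, Per1 and Tef, and in 6.05% of 27025 promoters. The D-box, searched as TTATGTAA or TTACGTAA, was found in Per3 alone of the 16, in 2 places, and in 0.962% of all promoters. The half-site TAGGTCA of REV-ERB and ROR was found in Nfil3, 12 to 6 bases before the start, and in 2.27% of all promoters. None of these letters were found in the window of Dbp, Hlf, Nr1d2 or Clock. Among genes called higher in number-443 hearts, 5 of 44 promoters held the E-box (11.4%), and among those called lower 4 of 57 (7.02%). The stretches of Nfil3 (chr13:52981040-52981069, minus strand), Tef (chr15:81802535-81802564, plus strand) and Per3 (chr4:151044771-151044890, minus strand) that hold a match are shown with the match in capitals, which in Nfil3 is the half-site read on the other strand, and those of Nfil3 and Tef lie in a GENCODE exon.
Nfil3: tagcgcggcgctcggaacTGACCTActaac
Tef: tgctgtggctcCACGTGctgcagctggcac
Per3: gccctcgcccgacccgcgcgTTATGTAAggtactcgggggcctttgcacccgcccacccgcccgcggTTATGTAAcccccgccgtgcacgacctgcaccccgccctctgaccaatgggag
A match is a description of the sequence and not a bound site.

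Among enzymes of mitochondrial fatty acid oxidation, the main source of energy of the adult heart, the calls were all lower in number-443 hearts. Of 19 enzymes tested, 5 fell (Decr1, Acadvl, Hadha, Etfdh and Acaa2), none rose and 14 did not pass, where 0.589% of all genes tested were called lower. Their median difference was -0.15 on the log2 scale, with 16 below 0, against -0.00499 and 7251 of 14096 over all genes. Summed over the list, CPM was 4664 and 4920 in KO-443, against 5701 and 5185 in KO-453, and 6761 and 7355 in WT-443, against 8454 and 8124 in WT-453. The number-443 sums lay below the number-453 sums within each genotype, with a mean difference of -941 CPM (exact permutation test within genotype, p = 0.0556, the smallest possible, 0.241 after adjustment).

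Decr1 (chr4:15917240-15945507, minus strand), the dienoyl-CoA reductase that prepares unsaturated fatty acids for the pathway, had 102 and 109 CPM in KO-443, against 156 and 129 CPM in KO-453, and 158 and 172 CPM in WT-443, against 227 and 227 CPM in WT-453. It was lower in number-443 hearts by -0.45 ± 0.06 on the log2 scale (adjusted p = 0.00758, edgeR). Acadvl, the dehydrogenase of very long chains, had 151 and 163 CPM in KO-443, against 214 and 184 CPM in KO-453, and 240 and 261 CPM in WT-443, against 344 and 327 CPM in WT-453, and differed by -0.38 ± 0.06 (adjusted p = 0.0142, edgeR). It overlaps 1151 exon bases of Dvl2 on the other strand, and Dvl2 differed by 0.03 (adjusted p = 0.889). Hadha, the α subunit of the trifunctional protein, had 1011 and 1081 CPM in KO-443, against 1378 and 1238 CPM in KO-453, and 1652 and 1838 CPM in WT-443, against 2195 and 2146 CPM in WT-453 (-0.32 ± 0.06, adjusted p = 0.0236, edgeR).

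Etfdh, which passes electrons from the dehydrogenases to ubiquinone, had 309 and 345 CPM in KO-443, against 432 and 367 CPM in KO-453, and 442 and 470 CPM in WT-443, against 585 and 585 CPM in WT-453 (-0.32 ± 0.06, adjusted p = 0.0320, edgeR). Acaa2, the thiolase, named as the remaining call of the list after its values were seen, had 448 and 458 CPM in KO-443, against 543 and 502 CPM in KO-453, and 788 and 861 CPM in WT-443, against 1091 and 1005 CPM in WT-453 (-0.28 ± 0.06, adjusted p = 0.0431). In both, the number-443 libraries lay below those of number-453 in each genotype. Hadhb, the β subunit beside Hadha, had -0.33 ± 0.08 (adjusted p = 0.0785) and Cpt1b, which gates entry of long chains, -0.36 ± 0.09 (adjusted p = 0.09002), and neither passed. The highest value of the list was 0.16, for Echs1. Over the 8 fits that left out 1 library, Decr1 was called in 6, Acadvl in 3, Etfdh in 2 and Hadha and Acaa2 in 1, and with library size alone in place of TMM 2 of the 5 were called.

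Related genes outside the list also fell, of which Ech1 and Crat were chosen after their values were seen. Ech1, which isomerises dienoyl-CoA, had 188 and 205 CPM in KO-443, against 258 and 241 CPM in KO-453, and 334 and 368 CPM in WT-443, against 468 and 464 CPM in WT-453 (-0.38 ± 0.05, adjusted p = 0.00803, edgeR). Slc25a20, the carnitine carrier, differed by -0.32 ± 0.05 (adjusted p = 0.0195) and Crat, carnitine acetyltransferase, by -0.31 ± 0.06 (adjusted p = 0.0357). Cidea, a lipid droplet protein listed here as a brown fat marker, had 22.98 and 21.4 CPM in KO-443, against 33.0 and 28.8 CPM in KO-453, and 34.5 and 31.5 CPM in WT-443, against 50.04 and 47.5 CPM in WT-453 (-0.52 ± 0.07, adjusted p = 0.00527). Of the 5 other brown fat markers none passed the filter on low counts. Cidea was called in 7 of the 8 fits that left out 1 library, Ech1 in 6, Slc25a20 in 3 and Crat in 1.

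Of 19 genes of the PPARα and fasting list Slc25a20 alone fell and none rose, with a median of -0.18. Over all genes tested 0.426% were called higher and 0.589% lower. Nuclear-encoded subunits of oxidative phosphorylation gave no call among 55, and their median was -0.03.

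Transcripts of the mitochondrial genome took a mean of 10.2% of counts in number-443 hearts and 9.32% in number-453 hearts, without overlap within a genotype (p = 0.0556 by the exact permutation test, the smallest possible, 0.241 after adjustment). These are shares of all counts, of which Gm42418 took more in WT-453-5. Scaled with TMM factors, the sums of the listed mitochondrial genes were 90476 and 94626 CPM in KO-443, against 90130 and 84322 CPM in KO-453, and 108060 and 105870 CPM in WT-443, against 99828 and 106900 CPM in WT-453, which overlap within CTL. Of 9 mitochondrially encoded genes tested, mt-Rnr2, the large ribosomal RNA, rose and 8 did not pass. Over all genes tested 0.426% were called higher. The median of the list was 0.03, with 0.08 within NAE1CKO and -0.02 within CTL. mt-Rnr2 had 5147 and 4750 CPM in KO-443, against 4007 and 3882 CPM in KO-453, and 3501 and 3751 CPM in WT-443, against 2632 and 3136 CPM in WT-453 (0.33 ± 0.06, adjusted p = 0.0320, edgeR). The tRNA gene beside it, mt-Tl1, had 29.0 and 34.3 CPM in KO-443, against 20.6 and 15.8 CPM in KO-453, and 26.9 and 25.6 CPM in WT-443, against 19.2 and 20.8 CPM in WT-453 (0.60 ± 0.11, adjusted p = 0.0320). Of the fits that left out 1 library, only that without KO-453-7 called either of them.

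The gene that separated the numbers most sharply was Gm28438, an unprocessed pseudogene on chr1:24612775-24613119 (GRCm38, minus strand) that copies a mitochondrial gene. It had 51 and 49 counts in KO-443, against 0 and 0 counts in KO-453, and 54 and 45 counts in WT-443, against 1 and 0 counts in WT-453. Present in every number-443 library and nearly absent from every number-453 library, it summed to 199 counts in number-443 hearts and 1 count in number-453 hearts, a ratio of 185 after scaling (95% counting interval 32.9 to 7350, which covers counting error only), with an adjusted p of 2.78e-05 in edgeR's quasi-likelihood test. All 345 of its bases align with mt-Nd3, which encodes subunit ND3 of complex I, and 1 base differs, T3C, in which mt-Nd3 has the first base, the position is counted from the first base of mt-Nd3, and Gm28438 has the last base. Both are shown over their first 60 bases with that base in capitals, mt-Nd3 on M:9459-9518 (plus strand) and Gm28438 on chr1:24613060-24613119 (minus strand).
mt-Nd3: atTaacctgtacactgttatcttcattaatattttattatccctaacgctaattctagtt
Gm28438: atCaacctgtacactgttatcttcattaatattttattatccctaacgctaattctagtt
The counterpart showed the reverse pattern. mt-Nd3 had 0 counts in each of the 4 number-443 libraries, against 5 and 7 counts in KO-453 and 4 and 5 counts in WT-453, which is at least 7.52-fold higher in number-453 hearts against a floor of 3 counts over the group. mt-Nd3 did not pass the filter on low counts and was not tested.

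The 6 other pseudogenes of the same stretch of chromosome 1 were examined beside it. Gm28439, Gm10222, Gm28437, Gm10925 and Gm28661 do not differ from mt-Nd4, mt-Nd4l, mt-Co3, mt-Atp6 and mt-Co2 at any aligned base, and Gm29216 differs from mt-Co1 at 6 bases. Their counts were 7 in number-443 hearts and 1 in number-453 hearts for Gm28439, 1 and 2 for Gm10222, 5 and 6 for Gm28437, 19 and 17 for Gm10925, 9 and 5 for Gm28661, and 11 and 9 for Gm29216. None approached the split of Gm28438, and none was tested. The sources do not say how reads that match both copies were counted, so counts of these genes and of their counterparts are uncertain as measures of expression, and the part of read assignment in this split was not tested.

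Calls were also made among imprinted genes, expressed from 1 parental allele, and RNAs retained in the nucleus. Of 22 imprinted genes tested, H19 rose and Kcnq1ot1 and Airn fell, 19 did not pass, and the median was 0.08, where 1.01% of all genes tested were called and their median was -0.00499. Kcnq1ot1 and Airn are long RNAs that silence their neighbours on the paternal chromosome. Kcnq1ot1 (chr7:143203458-143296549, minus strand) had 9.74 and 9.13 CPM in KO-443, against 18.6 and 16.4 CPM in KO-453, and 11.3 and 10.1 CPM in WT-443, against 16.6 and 24.2 CPM in WT-453. All 4 number-443 libraries lay below all 4 number-453 libraries, and the difference was -0.90 ± 0.11 on the log2 scale (adjusted p = 0.00527, edgeR). Its exons overlap 121 exon bases of Kcnq1 on the other strand, and Kcnq1 differed by 0.05. Kcnq1ot1 is annotated as 93092 exon bases, its whole span, and overlap with introns of other genes was not examined.

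Airn had 17.1 and 16.8 CPM in KO-443, against 22.4 and 22.1 CPM in KO-453, and 17.7 and 18.6 CPM in WT-443, against 21.9 and 24.3 CPM in WT-453 (-0.37 ± 0.07, adjusted p = 0.0320, edgeR). H19, a maternally expressed RNA of the growth locus, had 4190 and 4638 CPM in KO-443, against 3394 and 3743 CPM in KO-453, and 3812 and 3479 CPM in WT-443, against 2831 and 2697 CPM in WT-453 (0.35 ± 0.06, adjusted p = 0.0195). Over the 8 fits that left out 1 library, Airn was called in 1 and H19 in 2. Igf2, the growth factor gene of the same locus, and Cdkn1c, a cell cycle inhibitor beside Kcnq1ot1, did not pass (0.25 ± 0.06 and 0.52 ± 0.11, adjusted p of 0.0782 and 0.0781).

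Malat1, an abundant RNA of nuclear speckles, had 815 and 819 CPM in KO-443, against 1158 and 1100 CPM in KO-453, and 1003 and 963 CPM in WT-443, against 1540 and 1842 CPM in WT-453. Again all 4 number-443 libraries lay below all 4 number-453 libraries (-0.62 ± 0.07, adjusted p = 0.00469, edgeR). Neat1, the scaffold of paraspeckles, had 90.3 and 89.4 CPM in KO-443, against 114 and 143 CPM in KO-453, and 33.3 and 27.8 CPM in WT-443, against 66.8 and 51.1 CPM in WT-453, and did not pass (-0.72 ± 0.14, adjusted p = 0.0637). Of the 10 nuclear and rRNA-like transcripts tested Malat1 and Kcnq1ot1 fell, none rose, and all 10 had values below 0, with a median of -0.47, where 0.589% of all genes tested were called lower and 7251 of 14096 had values below 0. The median was -0.24 within NAE1CKO and -0.84 within CTL, a difference between genotypes that was not tested. Summed CPM of the list overlapped between the numbers within each genotype. The list includes Gm42418, whose share was highest in WT-453-5, and its part in the result was not tested. With Gm42418 left out of the fit, 141 genes were called.

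The remaining genes called with every library left out in turn belong to several functions. Aqp4, a water channel, had 20.6 and 21.5 CPM in KO-443, against 14.6 and 12.0 CPM in KO-453, and 47.4 and 47.2 CPM in WT-443, against 28.8 and 31.0 CPM in WT-453. Within each genotype it was higher in number-443 hearts, by 0.67 on the log2 scale within NAE1CKO and 0.66 within CTL (0.66 ± 0.07 together, adjusted p = 0.00299, edgeR). Cep89, a protein of the mother centriole, had 27.3 and 26.2 CPM in KO-443, against 16.9 and 14.6 CPM in KO-453, and 30.3 and 29.9 CPM in WT-443, against 19.98 and 22.6 CPM in WT-453 (0.63 ± 0.08, adjusted p = 0.00527). Abat, which breaks down GABA in mitochondria, had 17.1 and 18.1 CPM in KO-443, against 11.2 and 12.7 CPM in KO-453, and 32.1 and 28.7 CPM in WT-443, against 19.8 and 16.6 CPM in WT-453 (0.65 ± 0.09, adjusted p = 0.00570).

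Ddx17, an RNA helicase, had 174 and 168 CPM in KO-443, against 240 and 219 CPM in KO-453, and 143 and 132 CPM in WT-443, against 204 and 197 CPM in WT-453. The number-443 libraries lay below all number-453 libraries (-0.49 ± 0.05, adjusted p = 0.00299, edgeR). Smoc2, a matricellular protein, had 12.5 and 12.1 CPM in KO-443, against 18.1 and 17.3 CPM in KO-453, and 20.2 and 22.3 CPM in WT-443, against 32.4 and 33.4 CPM in WT-453 (-0.58 ± 0.07, adjusted p = 0.00469). Its groups overlapped between genotypes but not within either. Frmd5 had 109 and 109 CPM in KO-443, against 171 and 149 CPM in KO-453, and 112 and 122 CPM in WT-443, against 155 and 184 CPM in WT-453 (-0.54 ± 0.07, adjusted p = 0.00469).

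Agpat3, an acyltransferase of phospholipid synthesis, had 193 and 194 CPM in KO-443, against 268 and 242 CPM in KO-453, and 290 and 272 CPM in WT-443, against 367 and 387 CPM in WT-453 (-0.41 ± 0.05, adjusted p = 0.00469, edgeR). Spry4, an inhibitor of receptor tyrosine kinase signalling, had 51.3 and 51.3 CPM in KO-443, against 69.3 and 70.3 CPM in KO-453, and 32.7 and 29.6 CPM in WT-443, against 45.8 and 40.1 CPM in WT-453 (-0.46 ± 0.06, adjusted p = 0.00527). Spred1, a related inhibitor, was also lower (-0.28 ± 0.06, adjusted p = 0.0395), but was called in only 1 of the 8 fits that left out 1 library.

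**Figure D5:**
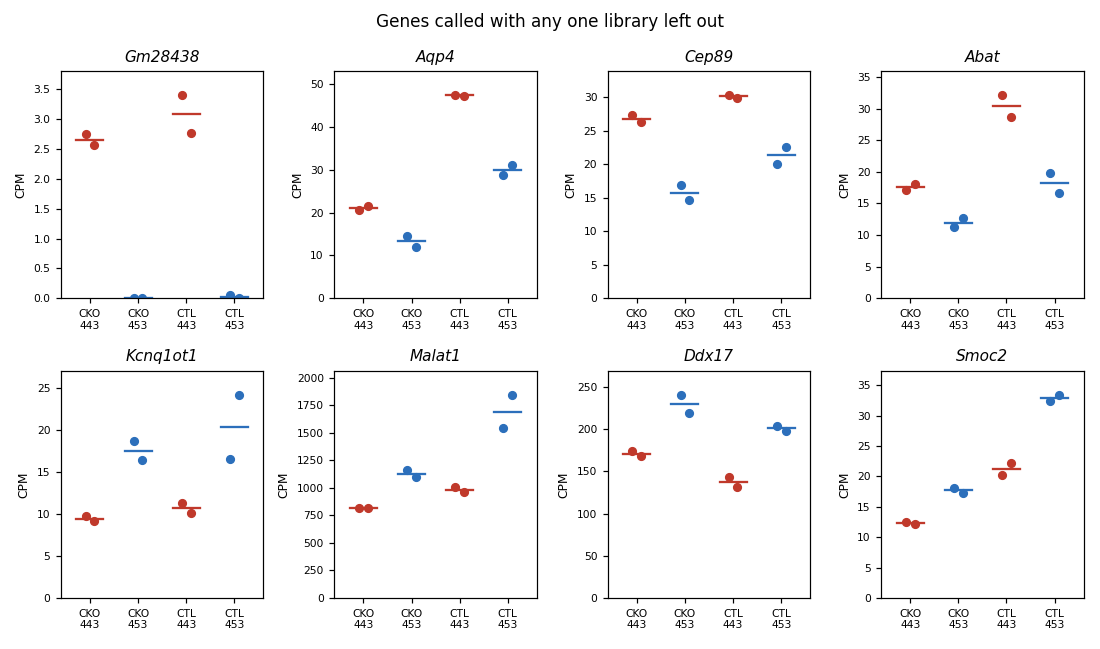
CPM of 8 genes that were called with each library left out in turn is shown for each library as a point, with the mean of each pair as a bar, for NAE1CKO (CKO) and CTL hearts of number-443 (red) and number-453 (blue). Gm28438 is near 0 in all number-453 libraries, Aqp4, Cep89 and Abat are higher in number-443 hearts within each genotype, and Kcnq1ot1, Malat1, Ddx17 and Smoc2 are lower.

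Past 1.5-fold, several of the called genes were scarce. Higher in number-443 hearts were Wdr31 (1.44 ± 0.30), Slitrk5 (1.05 ± 0.22), 2010300C02Rik (1.01 ± 0.21), Oscp1 (0.94 ± 0.19), Fam163a (0.80 ± 0.13), Hmgn5 (0.67 ± 0.09), a nucleosome-binding protein, and Cdc25b (0.65 ± 0.10), a phosphatase that activates mitotic kinases, on the log2 scale. Lower in number-443 hearts were Gm26762 (-1.12 ± 0.23) and Gm7162 (-0.76 ± 0.13). Of these, Hmgn5 was called in 7 of the 8 fits that left out 1 library, Cdc25b in 4, and Fam163a and Gm7162 in 2. Wdr31, Slitrk5, 2010300C02Rik, Oscp1 and Gm26762 were called in only 1. Gm7162 lies within the span of Airn on the other strand, and since the strand setting is not given, their reads may be shared. Just under 1.5-fold, and also lower, was Fabp3-ps1 (-0.56 ± 0.08), named as a pseudogene of the fatty acid binding protein of heart muscle whose reads may be shared with Fabp3. 2900052N01Rik, a non-coding RNA, was called on 6 counts in number-443 hearts, all of them in WT-443-7, and 66 counts in number-453 hearts, of which 43 and 20 were in WT-453, a ratio of 11.8 higher in number-453 hearts (95% counting interval 5.15 to 33.4). It was called in 3 of the 8 fits that left out 1 library, and its log2 difference was -2.51 without WT-443-8 and -6.54 without WT-443-7, where number-443 hearts keep no count and the value depends on the prior count of the fit. Gsta1, a glutathione transferase, had 104 and 83 counts in KO-443, against 147 and 240 counts in KO-453, and at most 1 count in any CTL library (-1.16 ± 0.23, adjusted p = 0.0396, edgeR), so its difference rests on NAE1CKO hearts.

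Several gene groups of the neonatal heart gave few calls or none. Over all genes tested 1.01% were called and 7251 of 14096 had values below 0. Few calls in lists of this size therefore do not set these groups apart from all genes. Of 25 fetal cardiomyocyte genes none passed, with a median of 0.04, and of 30 adult cardiomyocyte genes 1 fell, Myom2 (-0.32 ± 0.05, adjusted p = 0.0197), an M-band protein, with a median of -0.05. The 40 cell cycle genes had a median of 0.30, with 28 above 0, and none passed in edgeR. Mki67, the proliferation antigen, had 120 and 136 CPM in KO-443, against 135 and 42.3 CPM in KO-453, and 76.3 and 108 CPM in WT-443, against 74.8 and 96.1 CPM in WT-453. The low value is that of KO-453-7, whose part in the median of this list was not tested. Immediate early genes had a median of -0.29 and 1 call of 24, Klf2 (0.44 ± 0.09, adjusted p = 0.0449), a shear-responsive factor of endothelium, which rose while 21 members had values below 0. The median was -0.53 within NAE1CKO, where KO-453-7 had the high sum given above, and -0.08 within CTL, where the sums of the pairs overlapped. The part of KO-453-7 in the median was not tested.

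Among 29 collagen and matrix genes 1 fell, Loxl1 (-0.32 ± 0.07, adjusted p = 0.0486), a crosslinking enzyme, and 27 had values below 0. Over all genes tested 0.426% were called higher and 0.589% lower, and 7251 of 14096 had values below 0. Of 28 HIF1 targets 1 fell, Vegfa (-0.29 ± 0.05, adjusted p = 0.0236), the angiogenic growth factor. Lists for glucocorticoid-induced genes, sterol synthesis, heat shock, ER chaperones, interferon response and neddylation with the cullins held no called gene among 18, 21, 20, 20, 35 and 33 tested. Among markers of other cell types, fibroblast, macrophage, smooth muscle, epicardial, atrial and erythroid lists had no call, and of 9 endothelial markers Tie1, an endothelial receptor, rose (0.25 ± 0.05, adjusted p = 0.0431). All 12 macrophage markers had values below 0, and they summed to 178 and 198 CPM in KO-443, against 214 and 244 CPM in KO-453, and 118 and 125 CPM in WT-443, against 129 and 128 CPM in WT-453. Their part in the results was not tested. Sesn1, a stress-induced inhibitor of growth signalling, was the 1 call of 25 insulin and IGF genes (0.50 ± 0.09, adjusted p = 0.0396), Gpam, which starts glycerolipid synthesis, that of 18 lipogenesis genes (-0.35 ± 0.07, adjusted p = 0.0443), and Gsta1 that of 31 NRF2 targets. The calls of Myom2, Loxl1, Vegfa, Tie1 and Gpam ended with library size alone in place of TMM, and over the 8 fits that left out 1 library Loxl1 was called in 2 and the others in 1. No gene was called of the ATF4, MHC, histone or sex-linked lists, or of the cardiomyocyte, neutrophil, thymus and T cell, skeletal muscle and liver markers, and no lung marker passed the filter on low counts.

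Called genes lay on every autosome and on the X. The share of tested genes called ranged over the autosomes from 0.281% to 1.88%, with the upper end on chromosome 18 (7 of 373), and was 1.45% on the X (7 of 482), while none of 6 genes tested on the Y was called. Of 18 genes tested on the mitochondrial genome 2 were called (11.1%), mt-Rnr2 and mt-Tl1. Genes lower in number-443 hearts had a median length of the longest transcript of 4330 bases, against 3382 bases over all genes, and those higher in number-443 hearts had 3098 bases, while the median GC content was 48.6%, 49.9% and 50.2%, in the same order. Of the 143 called genes, 46 have exons that overlap another gene, 42 of them on the other strand, and their values are uncertain to that extent.

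The 14 genes called within NAE1CKO were Gm28438, Dbp, Aqp4, Cep89 and mt-Tl1, described above, and 9 others. Hey2, a repressor downstream of Notch that marks compact ventricular muscle, had 41.7 and 45.3 CPM in KO-443, against 26.9 and 24.4 CPM in KO-453, a difference of 0.76 (adjusted p = 0.00214, edgeR). In CTL it had 99.3 and 102 CPM in WT-443, against 95.7 and 96.0 CPM in WT-453, a difference of 0.07. Rab4a (1.17), Rgma (0.82), Sox4 (0.51) and Bahcc1 (0.49) were also higher, and Epha2 (-0.62), Slc25a34 (-0.55), Ctla2a (-0.55) and Nqo1 (-0.45), a quinone reductase, were lower in number-443 hearts within NAE1CKO on the log2 scale. Within NAE1CKO the number-443 libraries both expressed the Y-linked genes and 1 of the number-453 libraries expressed Xist. Without that library, KO-453-6, the NAE1CKO libraries left all expressed the Y-linked genes. KO-453 then held KO-453-7 alone, with no spread of its own, so that fit cannot tell whether the 14 calls depend on this imbalance. The count became 288 without KO-453-7, 8 without KO-443-3, 1 without KO-443-5 and 2 without any 1 of the CTL libraries.

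Within CTL, calls that the fit over both genotypes did not make included Tef (0.74, adjusted p = 0.0197), Neat1 (-0.96, adjusted p = 0.0472) and Tfrc (-0.37, adjusted p = 0.0449), the transferrin receptor. Ryr2, the calcium release channel of cardiomyocytes, had 2011 and 2005 CPM in WT-443, against 2570 and 2701 CPM in WT-453 (-0.39, adjusted p = 0.0330, edgeR), and in NAE1CKO 1226 and 1074 CPM in KO-443, against 1151 and 1146 CPM in KO-453. Its values overlapped within NAE1CKO, and its interaction did not pass (adjusted p = 0.311). Both WT-443 libraries and WT-453-3 expressed Xist, while WT-453-5 expressed the Y-linked genes. The count of 192 became 1408 without KO-453-6 or without KO-453-7, 69 without either library of KO-443, 4 without WT-443-7, 11 without WT-453-3, and 0 without WT-443-8 or without WT-453-5.

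The interaction tests whether the difference between numbers differs between genotypes. No gene passed (0%) in edgeR's quasi-likelihood test with Benjamini-Hochberg adjustment, with 1330 genes (9.44%) at an unadjusted p under 0.05, no gene by limma-voom and 41 by DESeq2. The smallest adjusted p was 0.187, for Hey2, Sned1 and Rgma. A count of 0 here came from 2 libraries a group and does not show that the genotypes were alike, and without KO-453-6 it became 1101, without KO-453-7 28, and without any other library 0 to 3. Myh7, the fetal myosin heavy chain, had 5447 and 5359 CPM in KO-443, against 3427 and 6213 CPM in KO-453, and 3086 and 2954 CPM in WT-443, against 979 and 883 CPM in WT-453. Its difference was 0.16 within NAE1CKO and 1.70 within CTL (adjusted p = 0.0795), 0.93 ± 0.40 with genotype as covariate (adjusted p = 0.325), and -1.53 in the interaction (adjusted p = 0.427).

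The ratio of Myh7 to Myh6, the adult isoform, was 0.308 and 0.307 in KO-443, against 0.192 and 0.413 in KO-453, and 0.131 and 0.122 in WT-443, against 0.0315 and 0.0330 in WT-453. Within CTL the pairs did not overlap, and over both genotypes the difference of 0.0494 did not pass (p = 0.611 by the exact permutation test). With the number as a covariate, 5586 genes (39.6%) differed between NAE1CKO and CTL at an adjusted p under 0.05, and without it 5005 genes (35.5%).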

How the data were processed

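The count table deposited by the authors gives unnormalised read counts by Ensembl gene for the 8 ventricle libraries. Per the submitters' processing notes, STAR 2.0.4b and featureCounts 1.4.5 were used, with Subread and bcl2fastq. Which genome build, annotation and strand setting they used is not given in the sources. The table had 41264 lines for 40690 genes, the other 574 lines repeating a gene, and 23947 genes had a count. Groups came from the sample titles. Among their tags, cell line reads cardiomyocyte and cell type reads neonatal. Libraries of a group differed by 4.03 to 61.2 in chi-square per gene, above counting noise, so each was kept. Hearts were separate mice, and the p-values measure the spread between hearts that share a number. The number itself has no replicates and what it stands for is not given. How far such units differ from each other in general was therefore not measured.

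Counts were fitted in R 4.3.3 with edgeR 4.0.16 (filterByExpr on the 4 groups, TMM, robust quasi-likelihood test, Benjamini-Hochberg adjustment over 14096 genes), with genotype as covariate, or with the 4 groups as cells for the differences within a genotype and the interaction, which then share 1 estimate of spread. Principal components were taken from log2 CPM with 2 as the prior count. Library measures were compared by two-sided exact permutation within genotype. limma 3.58.1 (voom) and DESeq2 1.42.0 were other count tests. The fit was tested on simulated data. Positions, overlaps, lengths and GC content came from GENCODE M21 on GRCm38, and promoters from RefSeq on GRCm38.p6.

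The comparison, the 40 gene lists (766 genes) and the rule for named genes were chosen with earlier results of these data known. The rule took, of called genes past 1.5-fold with no overlap within genotype, the 15 of smallest adjusted p in each direction, the 3 largest changes in each direction, up to 4 members of each list that passed and 2 that did not, and Nae1, Myh6, Myh7, Tnni1, Tnni3, Gm42418, Xist and 4 Y-linked genes. Genes called within NAE1CKO, genes called with each library left out, Ech1, Crat, Acaa2, Frmd5, Agpat3, Spry4, Spred1 and others named as such were chosen after their values were seen. Alternatives covered scaling, filter, test, dispersion, covariates, gene sets, thresholds, a replicate block and each library left out. Numbers given in last place in the titles are shared across groups only in part, and nothing says that they pair hearts.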

Additional observations from a re-analysis of the deposited data

Results flagged for a closer look

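Within CTL, WT-453-5 stood far from the other 3 in 2 library measures. Gm42418 took 12.774% of its counts, against 4.02% and 4.62% in the WT-443 libraries and 4.30% in the other WT-453 library, and its gap to the nearest library was 0.932 of the whole range of the CTL group. The 10 most abundant genes took 26.962% of its counts, against 19.2% and 19.5% in WT-443 and 19.8% in the other WT-453 library, a gap of 0.925 of the range. Both gaps exceed Dixon's critical value for 4 samples. Chance gives a gap past that critical value in about 1 in 20 groups. Gm42418 is itself among the 10 genes, so that the 2 measures are not independent.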

How the results depend on the processing

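The count of genes called between number-443 and number-453 hearts, 143 in edgeR with genotype as covariate, stayed within 1.5 times with RLE (141) or upper quartile scaling (125), library size alone (105), at least 1 CPM in 4 libraries (139) and without the X and Y chromosomes (134). It was 994 with no filter on low counts, 78 without robust estimation, 1 without the genotype term, 300 as the average of both within-genotype differences, 95 over protein-coding genes alone, 294 by DESeq2 and 95 by limma-voom, and 19, 23 and 382 at an adjusted p under 0.01, with 1.5-fold added, or under 0.10. Chosen after seeing the data, leaving out KO-453-7 and WT-453-5 together gave 777 (133 of the 143 among them) and log2 CPM of Xist as a covariate gave 90 (78 among them). With 1 library left out the count ranged from 13 to 1542. Without the 2 libraries the Y-linked genes changed sign, to 6.11 for Kdm5d, 5.92 for Eif2s3y and 6.89 for Uty, since number-443 then held 2 and number-453 none of the libraries that express them.

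A replicate block of the last title number, with genotype, left 1 residual degree of freedom and gave 813 calls, 139 of the 143 among them. Only some of the 5 numbers are shared between groups, no source says that they pair hearts, and this block is not a paired analysis of the study's design.

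Within NAE1CKO, 14 genes were called, against 9 with upper quartile scaling, 23 with library size alone, 383 with no filter, 7 with at least 1 CPM in 4 libraries, 2 without robust estimation, 4 over protein-coding genes, 80 by DESeq2 and 2 by limma-voom, and 2, 9 and 43 at an adjusted p under 0.01, with 1.5-fold added, or under 0.10. Within CTL, 192 were called, against 358 with library size alone, 992 with no filter, 80 without robust estimation, 76 by limma-voom, and 11, 76 and 574 at those thresholds. The interaction gave 288 with no filter and 41 by DESeq2. With 1 library left out the counts ranged from 1 to 742 within NAE1CKO, from 0 to 1408 within CTL and from 0 to 1101 in the interaction, where a lone library was assumed to vary like the other groups.

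Of the gene lists, library size alone gave 2 calls for fatty acid oxidation (5 with TMM), 2 for mitochondrially encoded genes (1), and 0 for the adult cardiomyocyte, HIF1, collagen, lipogenesis and endothelial lists (1 each). DESeq2 gave 8 for the clock (5 in edgeR), 5 each for the PPARα, imprinted and insulin and IGF lists (1, 3 and 1), 4 for nuclear transcripts (2), 2 each for the immediate early, mitochondrially encoded, adult cardiomyocyte, HIF1, collagen and NRF2 lists (1 each), 2 for ATF4 (0) and 1 each for the fetal cardiomyocyte, cell cycle, erythroid and histone lists (0). The third component had an exact permutation p of 0.02857 over 70 arrangements that ignore genotype, at the same difference of 12.3, and a difference of 9.73 with a prior count of 5. The second component had 9.99 over 1000 genes. Of 3245 values of named genes under these alternatives 2796 kept their side of the threshold, 219 lost the call, 227 gained one and 3 changed sign. With 1 library left out these counts were 1018, 253, 49 and 0 of 1320. A change of sign was counted only where the gene was called in the main fit or the alternative. Changes of sign in genes called in neither are therefore among the 2796 and the 1018. The causes were not tested. Depth limits the scarce genes, of which several were called on under 100 counts a group.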
